A study of Mus musculus with 4 samples.

Results

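The genes described here are 10 genes of the T and natural killer (NK) cell lineages, measured in 4 mouse acute myeloid leukaemia cell lines. They are Klrd1, Cd96, Cd28, Cd2, Cd6, Cd7, Lck, Zap70, Lat and Il2rg, 10 of the 21889 genes in the files. They were chosen by name, with their levels and ratios in these same 4 libraries known, so every value of theirs is a description and none was tested. B117H and B140H are lines highly resistant to Ara-C (cytarabine), a nucleoside drug against leukaemia that stops DNA synthesis, and they were derived from the sensitive parental lines B117P and B140P. The labels give Ara-C IC50 values of about 160 µg/ml for B117H and about 150 ng/ml for B117P, and of about 60 µg/ml for B140H and about 110 ng/ml for B140P. All 4 lines come from the BXH-2 strain and were passaged in ASM medium without Ara-C. B117H with B117P is called lineage B117 below, and B140H with B140P lineage B140. There was 1 RNA sequencing library per line, so no value has a replicate error and a difference between lines is also a difference between single libraries.

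T cells recognise antigen through a receptor whose CD3 chains carry the signal into the cell. The Src family kinase LCK phosphorylates those chains, the kinase ZAP70 binds to them, and ZAP70 phosphorylates the adaptor LAT, on which further signalling proteins assemble. CD28, CD2, CD6 and CD7 are surface proteins that modify this signal. NK cells use other receptors, such as the lectin-like CD94, encoded by Klrd1, and CD96, which binds the poliovirus receptor. IL2RG is the common gamma chain that the receptors for interleukins 2, 4, 7, 9, 15 and 21 share. Expression of single T or NK genes outside these lineages is known, since leukaemia cells and early progenitors can carry genes of several blood lineages.

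RefSeq start-site sequences on the GRCm38.p6 build were found for 5 of the 10 genes, with 8 start sites in all. Those of Lck and Cd96 are shown because both genes were far more abundant in lineage B117 than in lineage B140, and that of Il2rg because it was abundant in all 4 lines. Each runs on the minus strand from 250 bases before the start site to 50 after it, written 5′ to 3′. Capitals mark the core motifs of ETS factors (GGAAGT) and RUNX factors (TGTGGT) and the E-box CAGNTG, found on either strand. The GATA core AGATAA was searched as well and was in none of the 8 windows. No marked motif overlaps another.
Lck, upstream start, chr4:129573592-129573891: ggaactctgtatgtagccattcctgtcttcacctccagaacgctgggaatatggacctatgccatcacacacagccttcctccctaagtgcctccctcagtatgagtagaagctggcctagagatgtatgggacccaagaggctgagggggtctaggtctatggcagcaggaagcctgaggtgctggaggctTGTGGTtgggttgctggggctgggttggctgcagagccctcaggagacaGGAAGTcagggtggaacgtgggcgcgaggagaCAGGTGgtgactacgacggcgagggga
Lck, downstream start, chr4:129558323-129558622: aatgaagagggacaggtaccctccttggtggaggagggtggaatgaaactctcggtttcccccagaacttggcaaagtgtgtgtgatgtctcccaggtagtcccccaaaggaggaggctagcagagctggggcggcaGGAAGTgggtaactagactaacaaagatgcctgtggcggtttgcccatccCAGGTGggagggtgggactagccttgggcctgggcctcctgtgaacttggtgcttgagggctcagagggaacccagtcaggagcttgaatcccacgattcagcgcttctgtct
Cd96, chr16:46120199-46120498: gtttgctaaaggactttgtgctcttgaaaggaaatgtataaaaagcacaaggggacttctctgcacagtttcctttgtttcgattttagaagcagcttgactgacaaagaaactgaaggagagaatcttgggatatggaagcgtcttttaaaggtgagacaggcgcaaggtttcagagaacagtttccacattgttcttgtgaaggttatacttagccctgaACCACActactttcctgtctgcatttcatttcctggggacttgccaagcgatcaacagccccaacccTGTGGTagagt
Il2rg, chrX:101268206-101268505: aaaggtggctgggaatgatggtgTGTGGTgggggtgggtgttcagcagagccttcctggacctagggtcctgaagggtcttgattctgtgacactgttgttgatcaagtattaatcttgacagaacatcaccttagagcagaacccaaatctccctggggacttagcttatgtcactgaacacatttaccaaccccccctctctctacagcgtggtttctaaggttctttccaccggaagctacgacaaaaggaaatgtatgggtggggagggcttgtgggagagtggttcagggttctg
The start sites of Lck lie 15269 bases apart. In mice the downstream one is known as the promoter of thymocytes and the upstream one as the promoter of mature T cells, and FPKM per gene cannot tell which was used. The ETS core was in both Lck windows and in neither of the others shown, and it was in 23.8% of 32851 mouse start-site windows of the same length. The RUNX core was in the upstream Lck window, in the Cd96 window with 2 matches, and in the Il2rg window, against 16.8% of all windows. The E-box was in both Lck windows and in 51.4% of all windows. A match is a description of letters and says nothing of binding.

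The deposited values were FPKM, which count sequenced fragments scaled for transcript length and for library depth. The spacing of low values gave estimated depths between 19270000 and 24510000 fragments per library. For a transcript of 2 kb, 3 fragments stand for between 0.0612 and 0.0779 FPKM, and a gene listed at 0 may lie anywhere below such a level. An exact 0 can also be a failed estimate. Differences are log2 ratios of FPKM + 1, which understate the change of low genes. A gene was called past the 2-fold rule when that ratio was 1 or more, or -1 or less, and its mean FPKM over the 4 libraries was at least 1, as it was for 10066 genes. Of the 10 genes, 7 had such a mean. Cd6 and Lck were the lowest above the minimum, with means of 1.77 and 2.06 FPKM, and Lat, Cd2 and Cd7 were below it, with means of 0.358, 0.149 and 0 FPKM. Plain FPKM ratios below carry an exact Clopper-Pearson 95% interval on estimated fragments, which covers counting error only. In bulk RNA, fewer cells that express a gene and less RNA per cell cannot be told apart. For 6 multi-copy genes the listed position was not the same in the B117 files as in the B140 files, while it never differed inside a lineage. Whether the lineages were normalised separately is not stated, and levels set across them carry that limit.

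The lines differed in their lineage markers. Of 10 B lineage markers, Ebf1, an early B cell transcription factor, was at 23.7 FPKM in B140H and 24.7 FPKM in B140P, against 0.0230 FPKM in B117H and 0 in B117P. Ms4a1, a marker of later B cells, was at most at 0.0253 FPKM in any line. Mpo, the myeloperoxidase of myeloid granules, was at 473 FPKM in B117H and 1450 FPKM in B117P, but at 0.913 FPKM in B140H and 10.4 FPKM in B140P. Cd33, a myeloid surface receptor, had the other order, at 10.6 FPKM in B117H and 8.58 FPKM in B117P, and at 54.8 FPKM in B140H and 120 FPKM in B140P. The 11 myeloid markers measured summed to 1164 FPKM in B117H, 2916 FPKM in B117P, 434 FPKM in B140H and 555 FPKM in B140P. The 10 B lineage markers summed to 86.0 FPKM in B117H, 11.0 FPKM in B117P, 138 FPKM in B140H and 172 FPKM in B140P. Vpreb1, of the surrogate light chain, made up most of the sum in lineage B117, at 81.3 FPKM in B117H and 8.32 FPKM in B117P, and was at 14.1 FPKM in B140H and 54.8 FPKM in B140P. Blnk, an adaptor of B cells, was at 2.92 FPKM in B117H and 0.442 FPKM in B117P, and at 0.181 FPKM in B140H and 0.667 FPKM in B140P. The part of these markers in the results below was not tested.

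**Figure D1:**
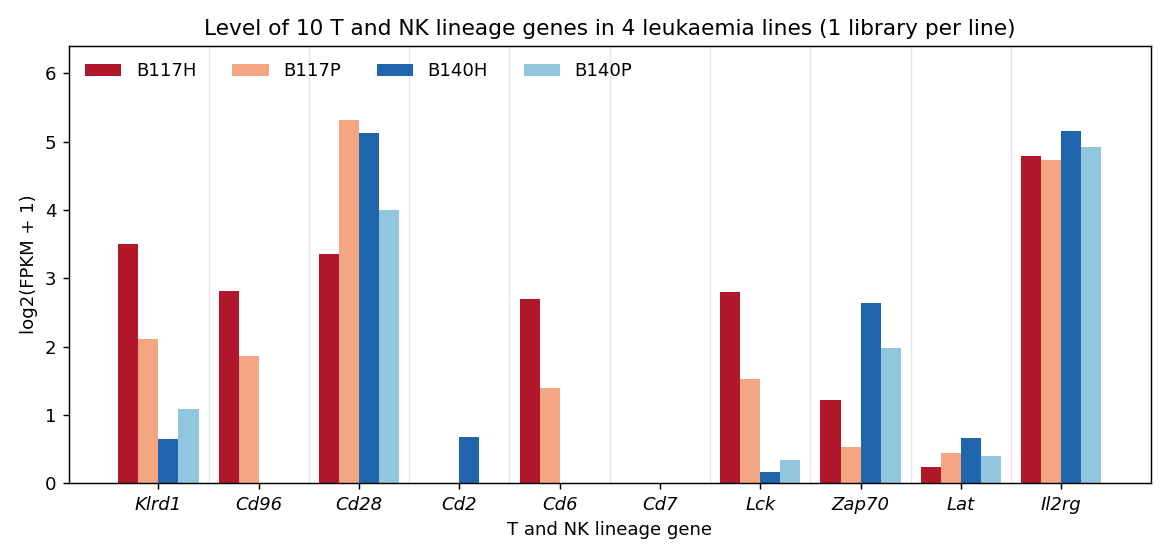
Bars give the level of each of the 10 genes as log2(FPKM + 1), in B117H, B117P, B140H and B140P from left to right, with 1 library per line and no error bars. Klrd1, Cd96, Cd6 and Lck are highest in B117H, Zap70 is highest in B140H, Il2rg is near 5 in all 4 lines, and Cd7 has no bar.

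In B117H, 3 of the 7 genes above the minimum were higher than in B117P past the 2-fold rule and 1 was lower. The higher ones were Klrd1, Cd6 and Lck, and the lower one was Cd28. Of all expressed genes, 1.41% were higher and 3.21% lower by the same rule. In B140H, 1 gene, Cd28, was higher than in B140P and none was lower, against 2.31% higher and 1.63% lower of all expressed genes. Since the genes were chosen with these ratios known, their counts are not read against those shares. The 7 genes had a median log2 ratio of 0.95 for B117H over B117P, beside -0.03 for all expressed genes, and of 0 for B140H over B140P, beside 0.11. That median of 0 falls on Cd6 and Cd96, which were listed at 0 in both B140 lines, so it is no measured lack of change. Cd6 and Cd96 reached the minimum mean only through lineage B117 and could not be called in lineage B140. The values nearest the 2-fold rule in lineage B117 were 1.28 for Lck inside it and 0.95 for Cd96 and 0.69 for Zap70 outside it. In lineage B140 they were 1.13 for Cd28 inside it and 0.66 for Zap70 and 0.23 for Il2rg outside it.

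The NK receptor gene Klrd1 was at 10.4 FPKM in B117H and 3.33 FPKM in B117P, and at 0.562 FPKM in B140H and 1.12 FPKM in B140P. Both lines of lineage B117 were above both of lineage B140. The ratio of B117H to B117P was 3.11 (2.34 to 4.16), a log2 ratio of 1.39, at rank 74 from the highest of 10066 expressed genes. The ratio of B140H to B140P was 0.501 (0.234 to 1.08), on about 13 and 20 fragments, so no difference was detectable at this depth. In mm9, the build of the files, Klrd1 spans 129543506 to 129548670 of chromosome 6, in the NK gene complex. Its neighbours Klre1 and Klrk1, also NK receptor genes, were at most at 0.0647 and 0.0166 FPKM in any line.

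CD94 needs a partner of the NKG2 family at the cell surface. Klrc1, Klrc2 and Klrc3, the genes of such partners, were listed at 0 in all 4 lines. H2-T23, which encodes Qa-1, the ligand of CD94 with NKG2A, was at 100.4 FPKM in B117H, 58.9 FPKM in B117P, 40.2 FPKM in B140H and 39.3 FPKM in B140P, although its span overlaps other listed genes.

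Cd96 was at 6.05 FPKM in B117H and 2.65 FPKM in B117P, and was listed at 0 in B140H and B140P. In the B140 lines 3 fragments would stand for 0.0560 and 0.0713 FPKM of this gene. Its ratio of B117H to B117P was 2.28 (1.85 to 2.86), while its log2 ratio of 0.95 was just short of the 2-fold rule. It lies on chromosome 16 from 46035770 to 46120361. Pvr, the gene of its ligand, was at 2.79 FPKM in B117H, 6.41 FPKM in B117P, 4.38 FPKM in B140H and 4.15 FPKM in B140P.

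Cd28, the co-stimulatory receptor for CD80 and CD86, was the gene with opposite calls in the lineages. It was at 9.19 FPKM in B117H and 39.0 FPKM in B117P, and at 34.0 FPKM in B140H and 15.0 FPKM in B140P. The resistant line was the lower of the pair in lineage B117 and the higher in lineage B140. The ratio of B117H to B117P was 0.236 (0.218 to 0.255), a log2 ratio of -1.97, at rank 69 from the lowest. The ratio of B140H to B140P was 2.27 (2.13 to 2.42), a log2 ratio of 1.13, at rank 169 from the highest. Its log2 ratio in lineage B140 was 1.02 after centring on the median of all genes and 1.0002 on TPM without small RNA genes.

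The level of Cd28 was well above the middle of the listed genes in each line. Its FPKM was above that of 72.7% of listed genes in B117H, 90.9% in B117P, 88.5% in B140H and 79.3% in B140P. It lies on chromosome 1 from 60803232 to 60830203, near the genes of the related receptors Ctla4 and Icos, which were at most at 0.0880 and 0.0880 FPKM in any line. Raph1, the listed gene on its other side at 179622 bases, was at 3.69 FPKM in B117H and 11.0 FPKM in B117P, and at 5.61 FPKM in B140H and 4.11 FPKM in B140P. Like Cd28, Raph1 was lower in B117H than in B117P and higher in B140H than in B140P. The genes of the CD28 ligands, Cd80 and Cd86, were at most at 0.709 and 0.216 FPKM.

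Cd6, a scavenger receptor family protein that binds ALCAM, was at 5.46 FPKM in B117H and 1.63 FPKM in B117P, and was listed at 0 in B140H and B140P. The ratio of B117H to B117P was 3.35 (2.68 to 4.18), a log2 ratio of 1.30, at rank 87 from the highest. It lies on chromosome 19 from 10863829 to 10904548. Cd5, a related receptor gene in the same cluster, was at 2.11 FPKM in B117H and 2.13 FPKM in B117P and was also listed at 0 in both B140 lines. Cd5 thus shared the lineage difference of Cd6 but not its higher level in B117H. The same held for the transporter gene 12485 bases from Cd6, Slc15a3, at 8.35 FPKM in B117H and 10.05 FPKM in B117P, and at 0.0534 FPKM in B140H and 0.273 FPKM in B140P. Alcam was at 3.70 FPKM in B117H and 1.31 FPKM in B117P, a log2 ratio of 1.02, and at 2.73 FPKM in B140H and 3.91 FPKM in B140P.

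Cd2 and Cd7 were barely present or listed at 0. Cd2, an adhesion receptor that binds CD48 in mice, was at 0.595 FPKM in B140H, about 17 fragments, and was listed at 0 in B140P, B117H and B117P. In B140P 3 fragments would stand for 0.135 FPKM. Cd7 was listed at 0 in all 4 lines, where 3 fragments would stand for between 0.125 and 0.159 FPKM. Cd48 was at 76.3 FPKM in B117H, 71.8 FPKM in B117P, 55.0 FPKM in B140H and 40.9 FPKM in B140P. Cd2 lies on chromosome 3 from 101079831 to 101091862 and Cd7 on chromosome 11 from 120898065 to 120900732.

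Lck was at 5.99 FPKM in B117H and 1.88 FPKM in B117P, and at 0.122 FPKM in B140H and 0.260 FPKM in B140P. Both B117 lines were above both B140 lines. The ratio of B117H to B117P was 3.19 (2.50 to 4.09), a log2 ratio of 1.28, at rank 90 from the highest. The ratio of B140H to B140P was 0.470 (0.164 to 1.41), on about 7 and 11 fragments, so no difference was detectable at this depth. Lck lies on chromosome 4 from 129225588 to 129250885. Its neighbour Hdac1, a histone deacetylase gene, was at 136 FPKM in B117H and 114 FPKM in B117P, and Fam167b on the other side was at most at 0.119 FPKM.

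Lck was not the most abundant kinase of its family. Lyn, a kinase of myeloid and B cells whose span overlaps 6330407A03Rik, was at 37.8 FPKM in B117H, 42.4 FPKM in B117P, 38.2 FPKM in B140H and 42.4 FPKM in B140P. Fyn was between 22.1 and 34.6 FPKM in the 4 lines. Of the 7 genes in the family, 3 had a mean of at least 1 FPKM. Lyn and Fyn did not pass the 2-fold rule in either lineage. Per length, Lck was below Lyn and Fyn in each line.

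Zap70 had the reverse order of lineages. It was at 1.33 FPKM in B117H and 0.445 FPKM in B117P, and at 5.20 FPKM in B140H and 2.93 FPKM in B140P. Both B140 lines were above both B117 lines, and the resistant line was the higher in each pair. The ratio was 2.99 (1.83 to 5.19) in lineage B117, on about 59 and 22 fragments, and 1.78 (1.43 to 2.20) in lineage B140, on about 286 and 127. Its log2 ratios of 0.69 and 0.66 did not pass the 2-fold rule. Zap70 lies on chromosome 1 from 36818706 to 36839661. Its relative Syk was not analysed here.

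Lat was low in every line, at 0.176 FPKM in B117H and 0.355 FPKM in B117P, and at 0.582 FPKM in B140H and 0.321 FPKM in B140P. These stand for about 4, 10, 18 and 8 fragments, so no difference within a lineage was detectable. The gene Spns1 lies 527 bases from it and was between 15.9 and 27.3 FPKM. Lat lies on chromosome 7 from 133507342 to 133513048. Lat2, the related adaptor of B, mast and myeloid cells, was at 83.6 FPKM in B117H and 104 FPKM in B117P, and at 199 FPKM in B140H and 91.6 FPKM in B140P, a log2 ratio of 1.11 in lineage B140. Per length, Lat2 was above Lat in each line.

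Il2rg was at 26.6 FPKM in B117H and 25.5 FPKM in B117P, and at 34.6 FPKM in B140H and 29.4 FPKM in B140P. It varied least of the 7 genes. Its ratio was 1.04 (0.950 to 1.14) in lineage B117 and 1.17 (1.08 to 1.28) in lineage B140, a log2 ratio of 0.23 beside the median of 0.11 of all expressed genes there. It was above between 86.3% and 88.7% of listed genes in each line. It lies on chromosome X from 98459726 to 98463545.

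The receptor chains that pair with the gamma chain were unequal. Il7r, the interleukin 7 receptor, was at 4.75 FPKM in B117H and 0.917 FPKM in B117P, a log2 ratio of 1.58, and at 15.5 FPKM in B140H and 11.2 FPKM in B140P. Il2ra and Il2rb, the other interleukin 2 receptor chains, were at most at 0.0469 and 0.114 FPKM. Il4ra was between 3.88 and 10.2 FPKM and Il21r between 6.11 and 13.9 FPKM. Jak3, the kinase bound to the gamma chain, was between 8.43 and 15.7 FPKM, although its span overlaps Insl3. Of 12 genes with a mean of at least 1 FPKM in the list of this pathway, Il7r was higher in B117H, none was lower, and none passed the rule in lineage B140.

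**Figure D2:**
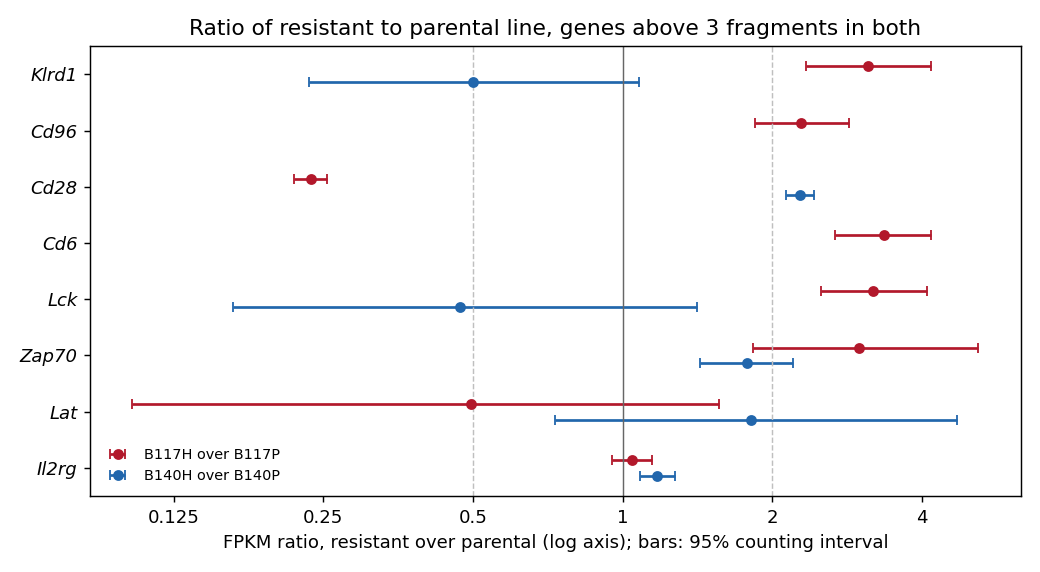
Points give the FPKM ratio of B117H to B117P and of B140H to B140P on a log axis, and bars the 95% counting interval, for genes above 3 estimated fragments in both libraries, with dashed lines at 0.5 and 2. Cd28 stands at 0.236 in lineage B117 and 2.27 in lineage B140, and the intervals of Lck, Klrd1 and Lat in lineage B140 and of Lat and Il2rg in lineage B117 include 1.

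The defining genes of T and NK cells were largely at or near 0. Of 11 genes of the T cell receptor complex and its co-receptors, 2 had a mean of at least 1 FPKM and neither passed the 2-fold rule within a lineage. Cd247, the zeta chain, was at 9.75 FPKM in B117H, 9.45 FPKM in B117P, 6.96 FPKM in B140H and 7.12 FPKM in B140P, and Cd5 is described above. Cd3e, Cd3g, Cd4 and Thy1 were listed at 0 in all 4 lines, and Cd3d was at most at 0.133 FPKM. Cd247 thus stood alone among the CD3 chains, and NK cells and T cells both use it.

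Of 32 NK receptors, adaptors and effectors, 18 were listed at 0 in all 4 lines, among them Ncr1, Gzma and Gzmb, and 5 had a mean of at least 1 FPKM. Klrk1, the receptor NKG2D, was at most at 0.0166 FPKM. Tyrobp, an adaptor shared by NK and myeloid cells, was at 39.3 FPKM in B117H and 288 FPKM in B117P, a log2 ratio of -2.84, and at 554 FPKM in B140H and 376 FPKM in B140P. It was the single gene of this list past the rule within a lineage. Nkg7, a granule membrane protein of cytotoxic cells, was at 70.5 FPKM in B117H and 74.8 FPKM in B117P and was listed at 0 in both B140 lines.

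Among the transcription factors of T and NK cells, Lef1, Gata3, Tbx21 and Tox were listed at 0 in all 4 lines, and Bcl11b and Ets1 were at most at 0.00573 and 0.0186 FPKM. Tcf7, the factor TCF1, was at 0.151 FPKM in B140H and 0.410 FPKM in B140P and at most at 0.0208 FPKM in the B117 lines. Of 9 factors with a mean of at least 1 FPKM, 2 were lower in B117H and none was higher. Id2, an inhibitor of E proteins, was at 9.44 FPKM in B117H and 26.9 FPKM in B117P, and Nfil3, a factor of NK development, at 5.70 FPKM in B117H and 20.1 FPKM in B117P. None of the 9 passed the rule in lineage B140. Runx1 and Runx3 were between 24.3 and 44.7 FPKM in the 4 lines. The rest of the 9 were present as well. Ikzf1 was between 50.6 and 97.6 FPKM, Tcf12 between 18.6 and 31.8 FPKM and Zbtb7b between 3.20 and 14.5 FPKM. Notch1 was between 3.09 and 10.2 FPKM and Foxp3 between 1.93 and 3.15 FPKM, although the span of Foxp3 overlaps other listed genes.

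Of 32 genes of signalling next to the T cell receptor with a mean of at least 1 FPKM, none was higher in B117H and 1 was lower, while 4 were higher in B140H and none was lower. The lower one was Fyb, an adaptor of T and myeloid cells, at 13.5 FPKM in B117H and 46.8 FPKM in B117P. Lcp2, the adaptor SLP-76, was at 8.21 FPKM in B140H and 0.830 FPKM in B140P, a log2 ratio of 2.33. Its level was 20.5 FPKM in B117H and 16.8 FPKM in B117P, above both B140 lines. Bcl10, an adaptor of antigen receptor signalling to NF-kB, was at 20.9 FPKM in B140H and 8.61 FPKM in B140P, a log2 ratio of 1.19. Lat2, described above, was also among the 4. Prkcq, a protein kinase C of T cells, and Themis, a protein of thymocyte development, were listed at 0 in all 4 lines.

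Of 10 co-stimulatory and adhesion receptors with a mean of at least 1 FPKM, 1 was lower in B117H, 1 was lower in B140H and none was higher in either. The one lower in B140H was Cd244, an NK and myeloid receptor for CD48, at 2.29 FPKM in B140H and 8.97 FPKM in B140P. Pdcd1, the receptor PD-1, was at 18.2 FPKM in B140H and 15.8 FPKM in B140P, against 0.216 FPKM in B117H and 0.0241 FPKM in B117P. Among 6 genes of ligands of the described receptors with such a mean, Alcam alone passed the rule within a lineage, in B117H.

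Over the 8 T and NK lists together, 171 genes were measured and 78 had a mean of at least 1 FPKM. In lineage B117, 2 of the 78 were higher and 6 lower by the 2-fold rule, which is 2.56% and 7.69%, and 70 did not pass. In lineage B140, 4 were higher and 1 lower, which is 5.13% and 1.28%, and 73 did not pass. The shares of all expressed genes given above are the background for these counts and for those of the single lists within a lineage. The 78 had a median log2 ratio of -0.0049 for B117H over B117P and of 0.0030 for B140H over B140P. The lists were written with results of these libraries known, so these counts are not independent of them.

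**Figure D3:**
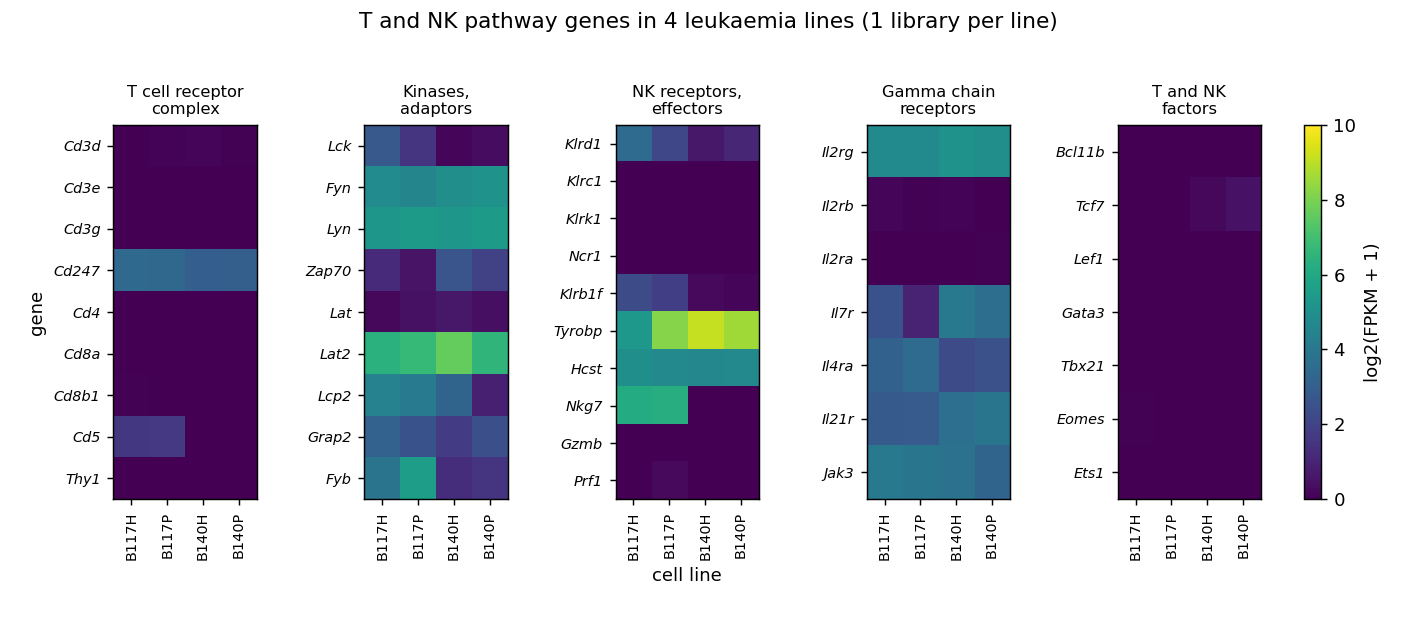
Colour gives log2(FPKM + 1) of genes from the T and NK lists together with Lck, Zap70, Lat, Klrd1 and Il2rg, in B117H, B117P, B140H and B140P, with 1 library per line. Rows of T cell receptor genes are dark except Cd247 and, in lineage B117, Cd5. The transcription factors drawn, Bcl11b, Tcf7, Lef1, Gata3, Tbx21, Eomes and Ets1, are dark. The 9 factors of that list with a mean of at least 1 FPKM, among them Runx1 and Runx3, are not drawn. Lyn, Fyn, Hcst and Il2rg lie near the middle of the colour scale in all 4 lines, and Lat2 lies above it. Tyrobp in B140H is the brightest cell.

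Between the parental lines, 1 of the 7 genes was higher in B140P than in B117P by the 2-fold rule and 5 were lower, against 5.83% higher and 10.8% lower of all expressed genes. Zap70 was the higher one, and Lck, Cd28, Cd6, Klrd1 and Cd96 were the lower ones. Between the resistant lines, 2 were higher in B140H than in B117H and 4 were lower, against 9.69% and 9.19% of all expressed genes. Cd28 and Zap70 were the higher ones, and Lck, Cd6, Klrd1 and Cd96 the lower ones. Lck, Cd6, Klrd1 and Cd96 reached the minimum mean only through lineage B117, so the filter itself favoured their calls as lower in lineage B140. The genes were also chosen with these ratios known, so the counts are not read against the shares of all expressed genes. These comparisons use the same 4 libraries as those within the lineages, so they are no further evidence. Il2rg did not pass the rule in either, with log2 ratios of 0.20 for B140P against B117P and 0.37 for B140H against B117H. The Lck ratio of B140H to B117H was 0.0204 (0.00869 to 0.0456) and that of Klrd1 was 0.0543 (0.0291 to 0.0976). The Zap70 ratio of B140P to B117P was 6.58 (4.20 to 11.0).

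None of the 10 genes overlapped another listed gene. The medians of the 10 nearest expressed genes on each side of each of the 7 genes lay between -0.31 and 0.09 in lineage B117 and between 0.05 and 0.23 in lineage B140 on the log2 scale. Around Cd28, whose own log2 ratios were -1.97 and 1.13, these medians were 0.09 and 0.05, with 1 neighbour higher and 1 lower in lineage B117 and none past the rule in lineage B140. Around Lck, at 1.28 in lineage B117, the median was 0.0008 and no neighbour passed the rule. Around Cd96 and Cd6 the medians were -0.31 and -0.26 in lineage B117, where both genes had higher FPKM in B117H than in B117P. Of the 20 neighbours there, none was higher and 3 were lower around Cd6, and 1 was higher and 2 were lower around Cd96.

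**Figure D4:**
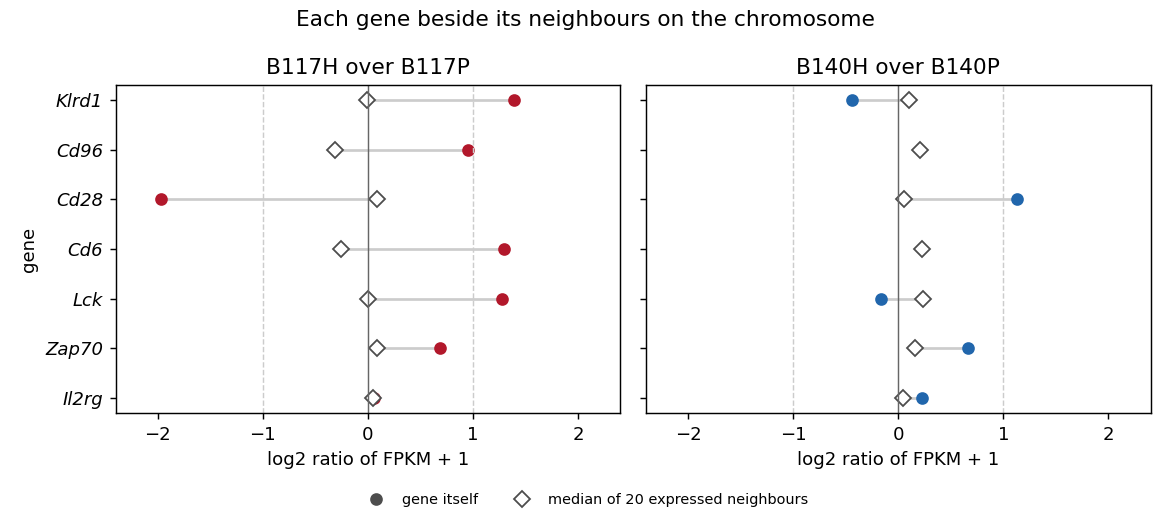
Filled points give the log2 ratio of FPKM + 1 of each of the 7 genes and open diamonds the median of its 20 nearest expressed neighbours, which covers the point of Il2rg on the left, for B117H over B117P on the left and B140H over B140P on the right, with dashed lines at -1 and 1. Cd6 and Cd96 have no filled point on the right because they are listed at 0 in both B140 lines, and the diamonds stay between -0.31 and 0.23 in both panels.

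The 2 expressed genes whose levels over the 4 libraries were most like each of the 7 genes were found by Euclidean distance of log2(FPKM + 1) centred on each gene's mean. For Lck they were Tns1, a focal adhesion protein, and Ccdc92, at distances of 0.17 and 0.17. For Cd6 they were Tns1 and Fn1, fibronectin, at 0.059 and 0.084. For Klrd1 they were Lck at 0.21 and Ccdc92 at 0.22, so Lck was the nearest of 10065 other genes. For Cd96 they were Vash2 at 0.17 and P2ry14 at 0.17, of which P2ry14 overlaps other listed genes. For Zap70 they were Rfc3, a subunit of the clamp loader of DNA replication, at 0.17 and Tmcc2 at 0.23. For Cd28 the nearest were farther, Rasgef1b at 0.41 and the histone gene Hist1h4h at 0.48. For Il2rg they were Atg9a and Rrp8 at 0.014 and 0.015. Each profile rests on 4 libraries of 2 lineages.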

How the data were processed

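RNA of 4 mouse leukaemia lines was sequenced, with 1 library per line. The authors deposited FPKM values for 21889 genes with mm9 coordinates. The tools named per the submitters' processing notes are Cuffdiff and TopHat2 (version 2.0.4), with mm9 as the genome. The gene annotation is not given in the sources used here. FPKM was taken as deposited. Listed starts were counted from 0, since this gave the same span as RefSeq for 6285 of 19357 shared symbols, against 434 when counted from 1, so 1 was added. The 10 genes and the 12 gene lists were chosen with earlier results of these data known. Of the listed genes, 3 were not analysed here. Some genes in the counts over lists are not reported here by name.

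Log2 ratios used a pseudocount of 1, a minimum mean of 1 FPKM and a 2-fold rule. No test was run, since each line has 1 library and the genes were chosen with their values known. To estimate depth, low FPKM values were multiplied by transcript length (GENCODE M21) and their step size was fitted, over 735 genes with 1 transcript of 3 kb or more. Of 65 to 89 low values per library, 67.4% to 80.0% lay within 0.15 of a whole fragment. The step was fitted to the same values, so these shares are no independent check. Estimated fragments used each gene's longest coding transcript. Intervals are at 95% and cover counting error only. The rule for named genes takes all 10 genes, up to 4 genes of each list with the largest ratios past the rule, fixed partners of the 10, the nearest profiles and the chromosome neighbours. Other list genes were named after their values were seen. The 2-fold rule and the depth estimate were tested on simulated data, with 4-fold changes planted in genes with a mean of at least 5 FPKM. Smaller changes, changes in lower genes and the other steps were not simulated. The 6 alternatives are given in the closing section. The scripts used scipy 1.17.1 for intervals, pandas 2.3.3 with numpy 2.4.6 for tables and matplotlib 3.10.9 for figures, under Python 3.11.15.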

Additional observations from a re-analysis of the deposited data

Results flagged for a closer look

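Cd28 was past the 2-fold rule in opposite directions in the lineages. Its log2 ratio in lineage B140 (1.13) minus that in lineage B117 (-1.97) was 3.10. With 1 library per line this difference was not tested.

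Among the marker genes of other cell types, 3 also passed the rule in opposite directions, and none of these differences was tested. Irf8, a factor of myeloid and dendritic cells, was at 57.2 FPKM in B117H and 119 FPKM in B117P, and at 200 FPKM in B140H and 88.5 FPKM in B140P, a difference of 2.21 between its log2 ratios. Vpreb1, of the surrogate light chain, was at 81.3 FPKM in B117H and 8.32 FPKM in B117P, and at 14.1 FPKM in B140H and 54.8 FPKM in B140P, a difference of -5.03. Hbb-b1, a beta-globin gene, had a difference of 4.95, but it overlaps Hbb-b2, with which its reads can be shared.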

How the results depend on the processing

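The 6 alternatives gave 96 counts of genes past the rule, and 67 of them were within 1.5 times the reported count. For single genes, 3 of the alternatives can change a log2 ratio within a lineage. Of 36 such values with a counting interval, 26 stayed inside that interval on the FPKM + 1 scale, 10 did not, and no called ratio changed sign. Cd6 and Cd96 in lineage B140 have no interval. With a pseudocount of 0.1, 5 of the 7 genes above the minimum were higher in B117H. Zap70 and Cd96 joined Lck, Cd6 and Klrd1, and TPM without small RNA genes also gave 5. All expressed genes higher in B117H also rose, from 142 of 10066 with the reported settings to 225 of 10066 with that pseudocount and 177 of 9997 on TPM. With a minimum mean of 5 FPKM, which keeps only Cd28 and Il2rg, 0 were higher in B117H, 1 was lower and 0 higher in B140P against B117P, and 1 was higher and 0 lower in B140H against B117H. With a 4-fold rule 0 were higher and 0 lower in B117H, and 0 were higher in B140H against B140P. Under that rule 0 were higher and 0 lower in B140P against B117P, and 0 were higher in B140H against B117H. Lck, Cd6, Klrd1 and Cd96 all stayed lower in B140H against B117H, 4 of the 7 genes above the minimum beside 431 of 10066 expressed genes. They reached that minimum only through lineage B117 and were chosen with these values known, so this is no independent support.

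For the 78 genes of the T and NK lists, those higher in B117H numbered 5 with a pseudocount of 0.1, 4 on TPM, 1 with the minimum of 5 and 0 with the 4-fold rule, which left 3 lower. Those lower in B140H against B140P numbered 3 with the pseudocount of 0.1, 3 on TPM, 2 after centring and 0 with the 4-fold rule, which left 1 higher. With the pseudocount of 0.1, 317 of all expressed genes were lower in B140H than in B140P, against 164 with the reported settings. In B140P against B117P the 4-fold rule left 3 higher and 7 lower, and the minimum of 5 left 8 lower. In B140H against B117H the 4-fold rule left 3 higher and 7 lower, and the minimum of 5 left 9 lower. Centring removed a median of 0.11 in lineage B140, which turned the split of all expressed genes from 233 higher and 164 lower into 173 and 199. It removed 0.15 between the resistant lines, where 975 higher and 925 lower became 761 and 1062. TPM gave 175 higher and 267 lower in lineage B140, and 735 and 1246 between the resistant lines. A fit over the 4 libraries with lineage as a block was not run, since the genes were chosen on these values. Depth limits Lck, Klrd1 and Lat in lineage B140, at 20 fragments or fewer per library.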

Other observations

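The marker lists of other blood cells give these further counts by the 2-fold rule. Of all expressed genes, 1.41% were higher and 3.21% lower in B117H than in B117P, and 2.31% higher and 1.63% lower in B140H than in B140P. Of 11 myeloid markers with a mean of at least 1 FPKM, none was higher and 6 were lower in B117H than in B117P, and none was higher and 2 were lower in B140H than in B140P. Of 7 such B lineage markers, 2 were higher and none lower in B117H, and 2 were higher and 2 lower in B140H. The 6 plasmacytoid dendritic cell markers summed to 116 FPKM in B117H, 190 FPKM in B117P, 326 FPKM in B140H and 203 FPKM in B140P. Irf8 and Bst2 made up most of that sum in each line. Siglech was between 0.537 and 18.1 FPKM, Ly6d was listed at 0 in all 4 lines and Ccr9 was at most at 0.0349 FPKM. The 9 erythroid, megakaryocyte and mast cell markers summed to 59.2 FPKM in B117H, 62.3 FPKM in B117P, 14.3 FPKM in B140H and 17.7 FPKM in B140P. Kit and Mcpt8 made up most of that sum in lineage B117. Kit was at 34.2 FPKM in B117H and 29.9 FPKM in B117P and was listed at 0 in both B140 lines. Mcpt8 was between 5.65 and 25.5 FPKM. Gata1, Klf1, Itga2b, Pf4 and Cpa3 were each at most at 0.619 FPKM in any line. The part of these markers in the levels of the T and NK genes was not tested.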
